A study of Arabidopsis lyrata subsp. lyrata with 8 samples.

Results

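Transcripts of the plastid genome were represented by 37 gene models among the 32371 that had values on the array. They were all models whose names carry ATCG and digits, the code of a plastid gene of Arabidopsis thaliana, and they covered 30 distinct codes, of which 6 had more than 1 model. Their 27 gene symbols included 26 of the 78 protein-coding symbols listed for the plastid in RefSeq's gene table of A. lyrata, and the remaining symbol was the 23S ribosomal RNA. A pair of open reading frames of the inverted repeat had no symbol and is given by code. No model carried the code of a subunit of the plastid RNA polymerase, and psbA, petB, accD, matK and ycf1 were not analysed here.

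The compared groups were roots and flower buds, taken at an age of 6 weeks from A. lyrata ssp. lyrata, the North American subspecies of a perennial rock cress closely related to A. thaliana. All plants came from seeds stratified for 7 days and kept in hydroponic culture, and the labels give no treatment. For both tissues the labels name "col 0", which is the name of an A. thaliana accession. A replicate was the pooled tissue of 8 to 10 plants, and the labels do not say whether a root and a flower bud replicate of the same number shared plants. RNA of 4 root and 4 flower bud replicates was labelled with the dye Cy3 and hybridised to the 8 arrays of 1 Agilent slide, where each tissue occupied a row of its own, so that row and tissue cannot be told apart.

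The plastid genome of land plants keeps a small set of the genes that the ancestral cyanobacterium had. They encode core subunits of the photosynthetic complexes, the large subunit of Rubisco, part of the plastid ribosome with its RNAs, and a bacterial-type RNA polymerase, while all other subunits are nuclear genes whose proteins are imported. In A. thaliana the bacterial-type polymerase, which needs nuclear sigma factors, transcribes mainly the photosynthesis genes, and nuclear phage-type polymerases transcribe genes such as accD and those of the bacterial-type polymerase, with many housekeeping genes having promoters for both. Roots hold non-green plastids, whereas young flower buds have green sepals with chloroplasts.

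The variance between flower bud arrays 1 and 2 was 0.688 of that expected from the scatter of repeated spots on an array, and between arrays 3 and 4 it was 0.792, whereas all remaining pairs of one tissue had ratios of 3.38 to 16.2. Arrays 1 and 2 were therefore averaged to sample A and arrays 3 and 4 to sample B, which left n = 4 for root and n = 2 for flower bud. Spots well above background made up 73.0% to 75.2% of the root arrays and 78.9% to 80.5% of the flower bud arrays, and 0 spots were saturated. The tissues carried their labels' markers: 5 of 5 measured root markers, such as the Casparian strip gene CASP1, were higher in root, and 5 of 5 measured flower markers, such as the petal and stamen identity gene AP3, were higher in flower bud. Because the samples were few and pooled, p-values measure only the spread between these samples.

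Models with plastid gene codes were higher in flower buds. As set out below, plastid transcripts and transcripts of copies in the nuclear genome cannot be told apart with these probes. Of the 37 models 33 were called higher in flower bud, with a difference of 2-fold or more and an adjusted p below 0.05, where the same call was made for 27.7% of all 26420 models tested. In root 0 of the 37 were called higher by limma, against 23.7% of all models, and 0 of them had an unadjusted p under 0.05 in that direction. The median difference, taken as log2 root minus log2 flower bud here and below, was -2.14 for the plastid models, which is 4.40-fold higher in flower bud, and -0.03 for all models tested. Every flower bud array lay above every root array in 35 of the 37 models, compared with 40.6% of all models. With no fold minimum, 35 of the 37 passed the adjusted p in the direction of flower bud, compared with 36.8% of all models.

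All 37 models were well above background on all 8 arrays, as were 67.1% of all models with values, so none passed a filter through 1 tissue alone. In bulk tissue a smaller number of plastids or of green cells and a lower amount of each transcript per plastid cannot be told apart. The labelling kit named in the protocol amplifies RNA, usually from poly(A) tails, which most plastid messages lack as stable ends, and the part of this in the levels was not tested.

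**Figure D1:**
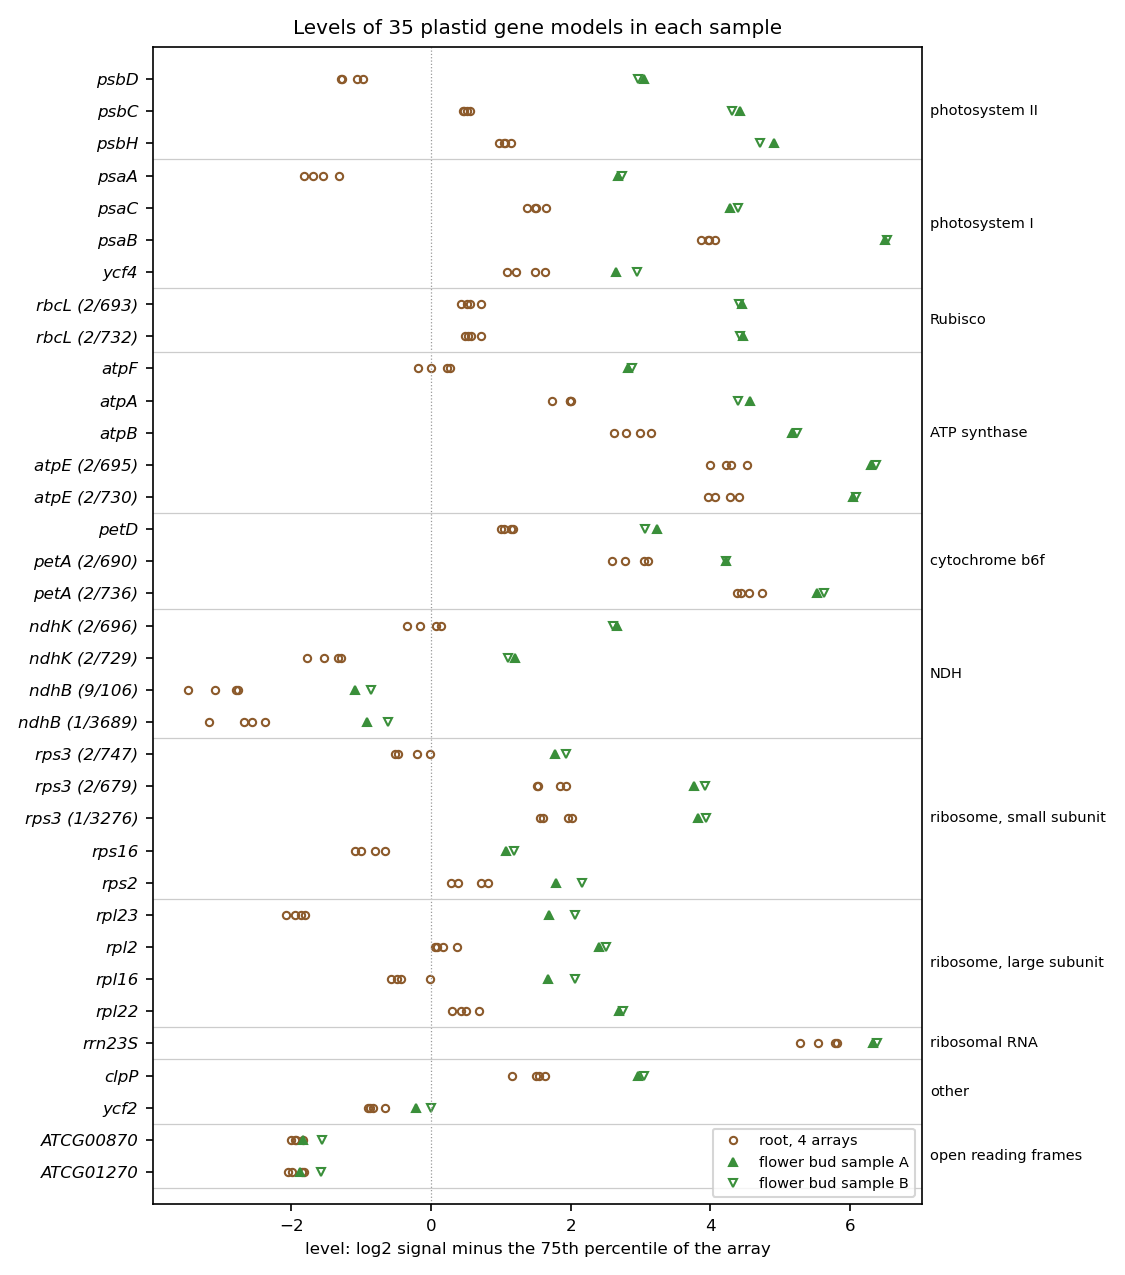
Level of 35 of the 37 plastid gene models in every sample, on the x axis as log2 signal relative to the 75th percentile of the array, with 1 model per row grouped by complex; open circles are the 4 root arrays and triangles the flower bud samples A and B. Positions can be read along a row and not between rows, since each row is another probe, and only the rows of ATCG00870 and ATCG01270 have root and flower bud points that overlap.

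The models of photosystem II, the complex that splits water, were all called higher in flower bud, 3 of 3, with a median difference of -3.86 (14.6-fold). Levels are given from here on as log2 signal relative to the 75th percentile of the array. For psbD, which encodes the D2 protein of the reaction centre, they were -1.29, -1.27, -0.97 and -1.06 in the root samples and 3.04 and 2.96 in flower bud samples A and B. No flower bud value came near a root value, and the difference was -4.15 ± 0.15 (SE, n = 4 and 2, adjusted p = 9.40e-07 from limma). The flower bud level was thus 17.8-fold the root level, with a 95% interval of 13.8 to 22.8.

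The psbC model, for the core antenna protein CP43, had levels of 0.46, 0.47, 0.56 and 0.51 in root and 4.42 and 4.31 in flower bud, a difference of -3.86 ± 0.12 (14.6-fold). That of psbH, for a small phosphoprotein of the same complex, had levels of 1.04, 0.98, 1.07 and 1.15 in root and 4.91 and 4.71 in flower bud, a difference of -3.75 ± 0.13 (13.5-fold). Both genes varied little among the root samples, with SDs of 0.05 and 0.07 compared with a median of 0.23 over all models tested.

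Rubisco fixes carbon dioxide, and its large subunit gene rbcL had 2 models, both called higher in flower bud. Model 2/693 (the scaffold and the serial number in its name) had levels of 0.52, 0.44, 0.72 and 0.55 in root and 4.45 and 4.41 in flower bud. Its difference was -3.87 ± 0.13, or 14.7-fold with an interval of 11.7 to 18.3 (adjusted p = 8.03e-07). Model 2/732 gave -3.87 as well, and the level difference between both models moved by no more than 0.07 over the 8 arrays. Transcripts of models that share a code may bind each other's probes, so that copies cannot be counted as separate measurements.

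Photosystem I, which passes electrons on to ferredoxin, had 4 of 4 models called higher in flower bud, with a wider range of -4.30 to -1.45. psaA, which encodes a large reaction centre protein, had the largest difference of all plastid models. Its levels were -1.31, -1.55, -1.68 and -1.82 in root and 2.68 and 2.73 in flower bud, a difference of -4.30 ± 0.17 (19.6-fold, interval 14.7 to 26.2, adjusted p = 1.53e-06).

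Its partner in the reaction centre, psaB, had levels of 3.87, 3.98, 4.06 and 3.96 in root and 6.50 and 6.53 in flower bud. The difference of psaB was -2.55 ± 0.12 (5.85-fold), and its 95% interval of -2.85 to -2.25 did not reach that of psaA, -4.71 to -3.88. psaC, the iron-sulphur subunit that hands electrons to ferredoxin, had levels of 1.38, 1.50, 1.65 and 1.49 in root and 4.28 and 4.39 in flower bud (-2.83 ± 0.14, 7.12-fold). ycf4, a factor needed to assemble the complex, had the smallest difference of the 4 at -1.45 ± 0.20 (2.72-fold), with root levels from 1.09 to 1.63 and flower bud levels of 2.65 and 2.95.

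The plastid ATP synthase, which makes ATP from the proton gradient, had 5 of 5 models called higher in flower bud and a median difference of -2.31 (4.97-fold). The range was narrow, from -2.77 to -1.88. The model of atpF, a stalk subunit of the membrane part, had levels of 0.27, 0.23, -0.01 and -0.18 in root and 2.82 and 2.88 in flower bud (-2.77 ± 0.17, 6.83-fold, adjusted p = 1.14e-05). For atpB, the catalytic β subunit, the levels were 3.14, 2.99, 2.79 and 2.61 in root and 5.16 and 5.23 in flower bud (-2.31 ± 0.18, 4.97-fold).

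The α subunit gene atpA had levels of 1.99, 2.00, 2.00 and 1.74 in root and 4.57 and 4.40 in flower bud (-2.55 ± 0.14, 5.87-fold). The ε subunit gene atpE, for the small subunit of the catalytic head, had models 2/695 and 2/730 with differences of -2.08 ± 0.17 and -1.88 ± 0.17. Both atpE models had root levels from 3.96 to 4.53 and flower bud levels from 6.04 to 6.38, without overlap.

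The cytochrome b6f complex, which links both photosystems, was measured by 3 models and all were called higher in flower bud, at a median of -1.34 (2.54-fold). petD, for subunit IV, had levels of 1.00, 1.04, 1.17 and 1.15 in root and 3.23 and 3.06 in flower bud (-2.06 ± 0.13, 4.16-fold). petA encodes cytochrome f, and its model 2/690 had levels of 3.10, 3.05, 2.78 and 2.59 in root and 4.22 and 4.23 in flower bud (-1.34 ± 0.18, 2.54-fold).

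The other petA model, 2/736, had a difference of -1.05 ± 0.15 (2.07-fold, adjusted p = 0.000753), the smallest of the 33 called. It was the 1 call lost when arrays were set to their medians, where its difference was -0.77. The 2 petA models differed from each other by 0.29 in their difference between tissues, more than any other models of 1 code.

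The NDH complex carries electrons around photosystem I, and its 4 models were all called higher in flower bud, at a median of -2.35 (5.10-fold). ndhK model 2/696 had levels of 0.14, 0.08, -0.15 and -0.34 in root and 2.67 and 2.61 in flower bud, a difference of -2.71 ± 0.17 (6.53-fold, adjusted p = 1.46e-05). Model 2/729 of ndhK gave -2.63 ± 0.18. ndhB, a membrane subunit whose gene lies in the inverted repeat, had 2 models with different codes, and these gave -2.06 ± 0.23 and -1.93 ± 0.24. The ndhB levels ranged from -3.48 to -2.38 in root and from -1.08 to -0.62 in flower bud, so that these groups did not overlap although the root SDs of 0.33 and 0.34 were the largest among the plastid models.

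**Figure D2:**
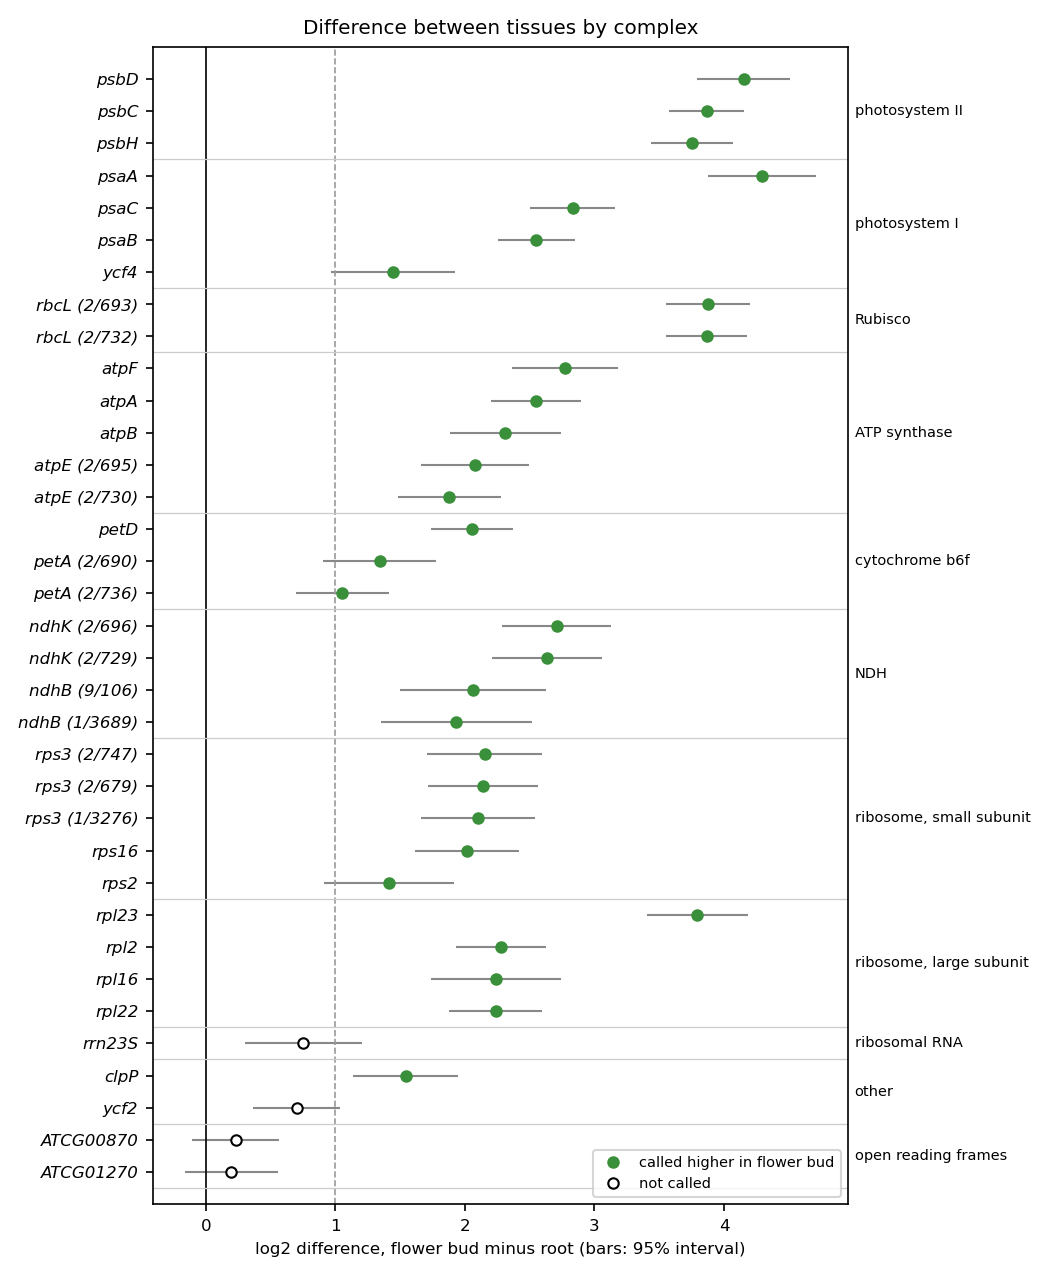
Difference between tissues for 35 of the 37 plastid gene models, on the x axis as log2 flower bud minus root (positive is higher in flower bud) with bars for the 95% interval from limma; filled points were called higher in flower bud and the dashed line marks a 2-fold difference. Photosystem II, rbcL, psaA and rpl23 lie between 3.75 and 4.30, whereas the 4 open points, 23S ribosomal RNA, ycf2 and the open reading frames, lie below 1.

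Proteins of the plastid ribosome were encoded by 11 models, of which 11 were called higher in flower bud, at a median of -2.14 (4.40-fold). In the small subunit, 7 of 7 were called and the differences ran from -2.15 to -1.42. The 3 models of rps3 gave -2.15 ± 0.18, -2.14 ± 0.18 and -2.10 ± 0.18. Of these, model 2/679 had levels of 1.93, 1.52, 1.53 and 1.85 in root and 3.76 and 3.93 in flower bud.

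rps16 and rps2, which encode further proteins of the small subunit, gave -2.02 ± 0.17 and -1.42 ± 0.21. Root and flower bud levels overlapped for neither of them.

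In the large subunit, 4 of 4 models were called, and 3 of them had nearly equal differences: rpl2 -2.28 ± 0.14, rpl16 -2.24 ± 0.21 and rpl22 -2.24 ± 0.15. rpl23, which encodes a protein at the exit of the ribosomal tunnel, stood apart from them. Its levels were -1.80, -2.08, -1.95 and -1.87 in root and 1.68 and 2.06 in flower bud, a difference of -3.79 ± 0.16 (13.9-fold, interval 10.6 to 18.1, adjusted p = 1.97e-06). The interval of rpl23 lay beyond those of the other 3 large subunit genes, and in the same range as photosystem II and rbcL.

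The 23S ribosomal RNA, the catalytic core of the large subunit, was not called. Its levels were 5.28, 5.54, 5.78 and 5.82 in root and 6.33 and 6.38 in flower bud. The groups did not overlap, but the difference of -0.75 ± 0.19 (1.68-fold, interval 1.23 to 2.30, adjusted p = 0.0102) was below the fold minimum. With the arrays set to the added spike-in RNAs or quantile normalized it passed, at -1.45 and -1.04.

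Among the remaining genes, clpP, the plastid-encoded proteolytic subunit of the Clp protease, was called higher in flower bud. Its levels were 1.64, 1.54, 1.51 and 1.17 in root and 2.96 and 3.06 in flower bud (-1.55 ± 0.17, 2.92-fold, adjusted p = 0.000205). ycf2, which encodes a very large protein linked to protein import at the inner envelope, had levels of -0.66, -0.82, -0.87 and -0.90 in root and -0.21 and -0.01 in flower bud. Its difference of -0.70 ± 0.14 (1.63-fold, adjusted p = 0.00380) was below the fold minimum, although the groups did not overlap, and it passed at -1.40 with spike-in scaling.

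The open reading frames ATCG00870 and ATCG01270 gave -0.23 ± 0.14 (adjusted p = 0.176) and -0.20 ± 0.15 (adjusted p = 0.272). Their root levels, from -2.04 to -1.82, overlapped those of flower bud sample A at -1.84 and -1.88, while sample B lay higher at -1.56 and -1.58. The sign of both differences turned when the arrays were set to their medians, and that of ATCG01270 also under quantile normalization.

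Bacterial-type operons group plastid genes that are read as 1 precursor, and the array measured members of several. The order of genes in them is textbook background for A. thaliana, and the pairs were chosen after their values were seen, so no test is given. psaA and psaB lie next to each other in 1 operon, and the difference between their levels, set to 0 at the root mean, ran from -0.23 to 0.38 in the root samples and was 1.74 and 1.76 in flower bud samples A and B. psbH and petD belong to the psbB operon, and the same quantity ran from -0.07 to 0.08 in root and was 1.71 and 1.68 in flower bud. For psbD and psbC, which overlap in the genome, it was 0.27 and 0.30 in flower bud, with root samples from -0.10 to 0.11.

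The ribosomal protein operon begins with rpl23 and goes on through rpl2, rpl22, rps3 and rpl16. Along it the differences between tissues were -3.79 for rpl23, -2.28 for rpl2, -2.24 for rpl22, -2.15 to -2.10 for rps3 and -2.24 for rpl16. The level of rpl23 relative to rpl2 exceeded its root mean by 1.38 in sample A and by 1.65 in sample B, while root samples lay between -0.08 and 0.18. In the operon that leads from rps2 to the ATP synthase genes, atpF relative to rps2 was above its root mean by 1.51 and 1.20 in flower bud, with root samples between -0.07 and 0.08. Other neighbours had closer differences between tissues. In that same operon atpF was at -2.77 and atpA at -2.55. In the atpB operon atpB was at -2.31 and the atpE models at -2.08 and -1.88.

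By their names, the plastid models were predicted on scaffolds of the nuclear genome assembly. Among models named after A. thaliana genes they fell into 5 runs, allowing at most 1 other model between neighbours: 2 runs on scaffold 1, 2 on scaffold 2 and 1 on scaffold 9. The longest, 15 models with numbers 679 to 715 on scaffold 2, passed through the plastid codes in falling order in 14 of 14 steps, from rps3 to rps16. The next, 12 models with numbers 723 to 754, passed through them in rising order in 11 of 11 steps, from psbD to ycf2. Both runs held models of rps3, petA, rbcL, atpE and ndhK.

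Plastid transcripts and transcripts of such copies in the nuclear genome cannot be told apart with these probes. The medians of the runs on scaffold 2 were -2.14 and -2.20, and the models of these genes differed between the runs by 0.01 (rbcL) to 0.29 (petA) in their difference between tissues. The nearest nuclear models tested beside the runs were called in either direction or not at all. AT2G12905, a nuclear model within the run of 12 models on scaffold 2, was called higher in flower bud at -1.19 ± 0.18 (adjusted p = 0.000963 from limma). AT4G30280 has a model at the end of each scaffold 2 run, and both were called higher in root. The first was not well above background on any flower bud array and was at least 547-fold higher in root, counting each flower bud array at no less than its lowest signal well above background. The second, well above background on 1 of 4 flower bud arrays, was at 9.54. AT1G38131 and both models beside the first run on scaffold 1 were also called higher in root, and AT1G65342, at least 23.2-fold by the same bound because it was not well above background on any root array, and AT4G12750 were called higher in flower bud.

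**Figure D3:**
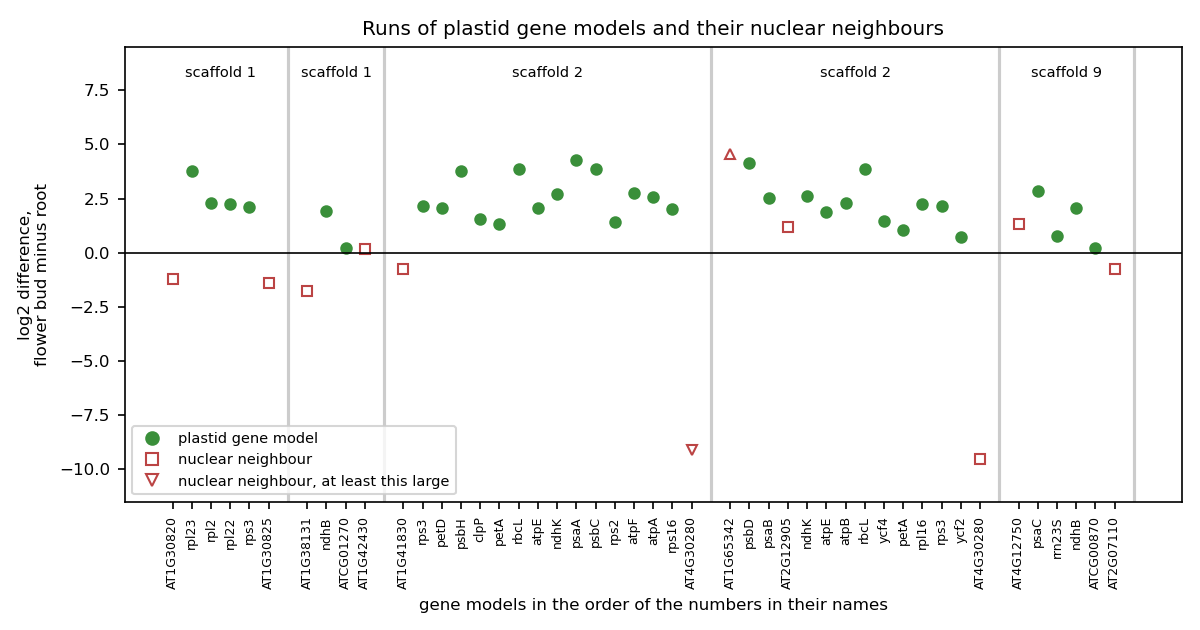
Difference between tissues (y axis, log2 flower bud minus root, positive is higher in flower bud) along the 5 runs of plastid gene models, of which 35 of 37 are drawn, in the order of the numbers in the model names; filled circles are plastid models and open squares the nearest nuclear models tested beside or within a run, or open triangles where the difference is at least as large as drawn. The plastid models drawn lie above 0, while nuclear neighbours lie on both sides of it, down to -9.54 for AT4G30280.

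Nuclear genes for subunits of the same complexes give the other members of each assembly. Their counts of calls, here and below, are to be read against the 27.7% of all models called higher in flower bud. Of the nuclear photosystem I genes, 7 of 7 measured were called higher in flower bud, and their median was -5.95. The list was led by PSAE1 at -7.35 ± 0.26 and PSAO at -6.73 ± 0.34, which encode small peripheral subunits. For photosystem II it was 7 of 7 with a median of -5.64, led by the small membrane subunit gene PSBY at -7.93 ± 0.25 and PSBQ2, for a protein at the water-splitting site, at -7.32 ± 0.18. All 14 of these nuclear genes, and the 7 plastid models of both photosystems, were higher on every flower bud array than on every root array. The same held for 40.6% of all models tested.

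The Rieske protein gene PETC of the cytochrome b6f complex was higher in flower bud by a difference of -6.95 ± 0.20, where the plastid models of that complex lay between -2.06 and -1.05. The Rubisco small subunit genes were called in 3 of 3 cases with differences of -12.52 to -9.13, compared with -3.87 for rbcL. They were well above background on 2, 4 and 2 of the 4 root arrays. RBCS1B and RBCS3B led that list with -12.52 ± 0.80 and -12.16 ± 0.64. Nuclear NDH subunit genes were called in 11 of 12 models with a median of -5.77, compared with -2.35 for the plastid models. PNSL3, for a subunit of the lumenal part, and NDHM, for a subunit that cyanobacterial NDH complexes also have, led with -7.80 ± 0.28 and -7.43 ± 0.31 and were well above background on 1 and 3 of the 4 root arrays. The NDH model without a call, PNSL5, a cyclophilin, was at 0.84 ± 0.15 and was called higher in root when arrays were set to their medians.

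The ATP synthase genes of the nucleus, ATPD and ATPG for the δ subunit and a stalk subunit, were both called, at -4.25 ± 0.15 and -1.63 ± 0.23. Nuclear genes of plastid ribosomal proteins were called higher in flower bud in 24 of 27 cases. Their median of -2.04 (4.12-fold) was close to that of the plastid-encoded ribosomal proteins, -2.14. PSRP3, for a protein of the small subunit, at -6.76 ± 0.14 and RPL13 at -3.05 ± 0.15 led that list. Differences between the plastid and the nuclear lists were not tested.

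Clp protease genes of the nucleus were not called, 0 of 4 by limma, with a median of -0.48 and 3 of 4 at an unadjusted p under 0.05 in the direction of flower bud. With spike-in scaling 3 of them were called, whereas plastid clpP was called under every scaling tried. Acetyl-CoA carboxylase, which starts fatty acid synthesis and whose plastid-encoded subunit was not analysed here, had CAC2 higher in root by 1.42 ± 0.13 and CAC3 at 0.13 ± 0.21. The call of CAC2 was lost with spike-in scaling.

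**Figure D4:**
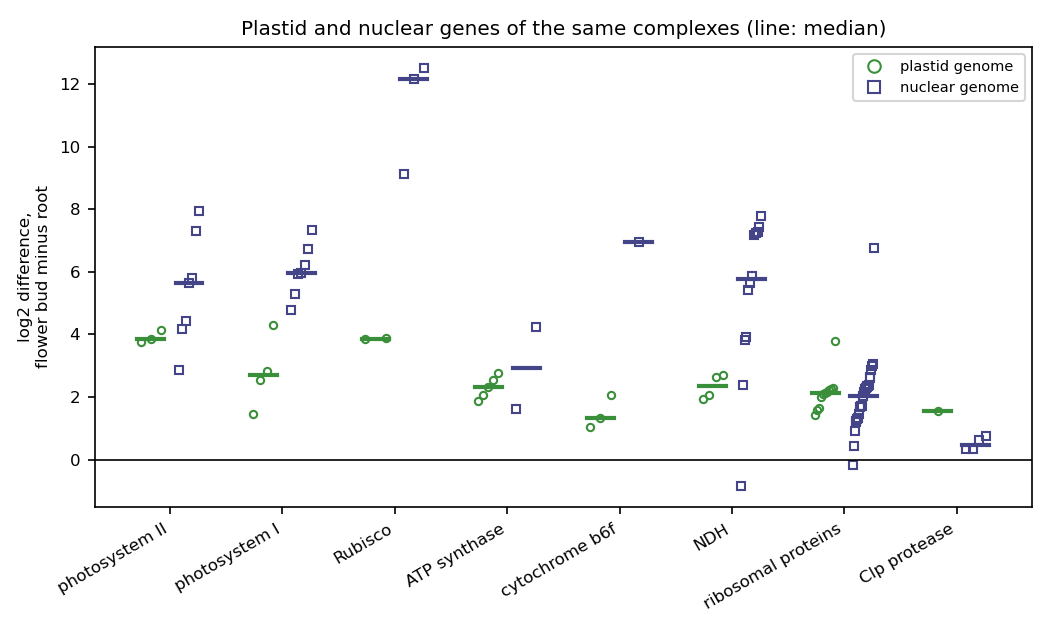
Difference between tissues (y axis, log2 flower bud minus root, positive is higher in flower bud) of plastid genes (circles) and nuclear genes (squares) for each complex, with a bar at the median of each list. The medians are 3.86 and 5.64 for photosystem II, 2.35 and 5.77 for NDH, and 2.14 and 2.04 for ribosomal proteins, plastid and nuclear in turn.

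Nuclear genes that serve the transcription and processing of plastid RNA were given by 4 short lists, to be read against the 27.7% of all models called higher in flower bud. Sigma factors direct the bacterial-type polymerase to promoters, and 2 of 3 measured were called: SIG6 at -3.73 ± 0.21 and SIG5, which in A. thaliana acts at a light-responsive psbD promoter, at -1.90 ± 0.20. SIG2 was at -0.98 ± 0.16, just below the fold minimum. The phage-type polymerase RPOTp was called at -1.84 ± 0.14 (3.59-fold). SIG6 had levels of -5.69, -5.43, -5.61 and -5.05 in root and its flower bud arrays lay between -1.80 and -1.64.

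Proteins that form part of the bacterial-type polymerase complex, called PAPs, were higher in flower bud in 7 of 9 cases, with a median of -1.61. PAP1 and PAP6 led with -3.33 ± 0.15 and -3.21 ± 0.40. PAP8 had the opposite sign, at 0.96 ± 0.13 (adjusted p = 0.000563 from limma), below the fold minimum. It was dim, with mean levels of -6.81 in root and -7.77 in flower bud, and well above background on 3 of the 4 flower bud arrays. With quantile normalization or median scaling 1 of the 9 was called higher in root. Of 4 genes for plastid RNases and RNA-binding proteins 3 were called, led by CSP41A at -7.38 ± 0.20 and CSP41B at -4.98 ± 0.32, which bind and stabilise plastid RNA.

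Models with mitochondrial genome codes, the other organelle genome on the array, numbered 5. Of these 0 were called higher in flower bud (27.7% of all models) and 1, ATMG00900, was called higher in root at 1.13 ± 0.15 (23.7% of all models). The other 4 lay between -0.11 and 0.12, with adjusted p from 0.495 to 0.724 by limma, and 0 of the 5 had an unadjusted p under 0.05 in the direction of flower bud. Most of the 5 were dim, with mean root levels of -6.01, -4.14, -5.27, -6.88 and -0.72. The dimmest, ATMG00760, was well above background on 3 of the 4 root arrays. By their names all 5 were predicted on scaffolds of the nuclear assembly, so mitochondrial transcripts and transcripts of nuclear copies cannot be told apart either.

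Plastid models were highest in root replicate 1 in 20 of 37 cases (54.1%), compared with 32.0% of all models tested. These included 10 of 11 ribosomal protein models, 4 of 5 ATP synthase models and 2 of 4 NDH models, but 0 of 3 for photosystem II and 0 of 2 for rbcL. The median deviation from the tissue mean in that replicate was 0.26 for the small and 0.20 for the large ribosomal subunit, 0.23 for both ATP synthase and NDH, and -0.05 for photosystem II. The 23S ribosomal RNA was lowest in that replicate, at -0.32 from its mean. Of the nuclear lists, PAP genes were highest in root replicate 1 in 6 of 9 cases and plastid ribosomal proteins in 8 of 27. For nuclear photosystem I and photosystem II genes it was 0 of 7 each. Plastid models were lowest in root replicate 4 in 18 of 37 cases (48.6%), compared with 36.6% of all models. These included 5 of 5 ATP synthase and 4 of 4 NDH models, with median deviations of -0.26 and -0.37. For the small ribosomal subunit it was 2 of 7, for the large 1 of 4 and for photosystem II 0 of 3. In that replicate photosystem II was at 0.09 and the 23S ribosomal RNA at 0.21. The 75th percentile of the signal, to which levels were set, was highest on the array of root replicate 1 (4499) and lowest on that of root replicate 4 (2541), and its part in these deviations was not tested.

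Between the flower bud samples, B was above A in 28 of 37 plastid models (75.7%), compared with 51.4% of all models tested. Ribosomal proteins were higher in B in 11 of 11 models, by a median of 0.17, and photosystem I in 4 of 4. ATP synthase was higher in B in 4 of 5 models, cytochrome b6f in 2 of 3 and NDH in 2 of 4. Photosystem II and rbcL were higher in B in 0 of 3 and 0 of 2. Nuclear genes of plastid ribosomal proteins were higher in B in 26 of 27 cases, by a median of 0.15. PAP genes were higher in B in 7 of 9 cases, but sigma factors in 0 of 3, nuclear Clp protease genes in 0 of 4 and plastid RNases and RNA-binding proteins in 0 of 4. Models with mitochondrial genome codes were higher in B in 4 of 5 cases, by a median of 0.298, compared with 0.096 for the plastid models. With 1 sample on each side there is no test of this difference.

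**Figure D5:**
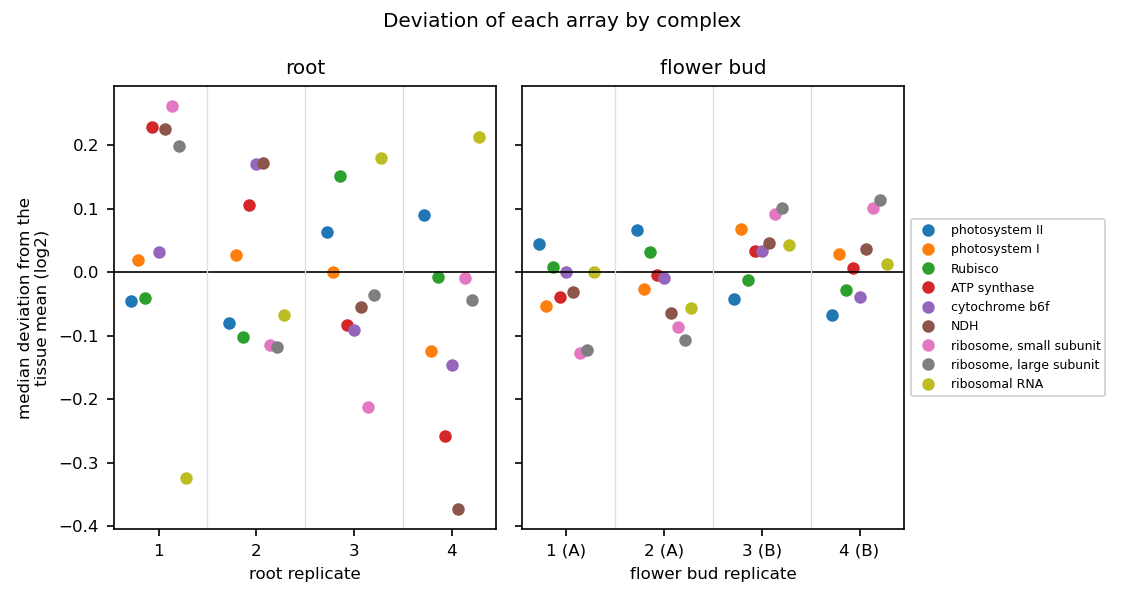
Median deviation of each complex from its tissue mean (y axis, log2) on each of the 4 root arrays and the 4 flower bud arrays, the latter marked with the sample, A or B, to which they belong. Root replicate 1 has the ribosomal proteins, ATP synthase and NDH between 0.20 and 0.26 and the 23S ribosomal RNA at -0.32, root replicate 4 has ATP synthase at -0.26 and NDH at -0.37, and in flower bud the ribosomal proteins lie below 0 on the arrays of A and above 0 on those of B.

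All differences are relative to the 75th percentile of each array, where the median model lay at -0.03 and flower bud held 53.9% of all calls. The median model moved to -0.73 with spike-in scaling (73.3% of calls in flower bud), to 0.25 with arrays set to their medians (45.2%) and to 0.10 with quantile normalization (48.3%). Under these scalings 35, 32 and 34 of the 37 plastid models were called higher in flower bud.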

How the data were processed

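The scanner files held spot intensity values, from which Agilent Feature Extraction 10.10.1.1 had removed background and spatial trends, per the file headers, with no normalization between arrays, and other marks per spot for outliers, saturation and signal well above background. Lines left over after the 62976 features of each file were dropped. Log2 of the processed intensity was averaged over the spots of a probe that were not outliers, and each array was set to the 75th percentile of its non-control probes; 15 of 32863 probes were dropped, and 32371 of 32386 models kept values. The values the authors deposited as a matrix were in log2 and matched these, centred per probe, at r of at least 0.999997 on every array. Its column medians were 0.02, -0.05, 0.06 and 0.08 on the root arrays and -0.04, -0.05, -0.02 and 0.06 on the flower bud arrays. Scale, centring and direction of that matrix are read from the match alone, as the labels and headers do not describe them.

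A model was represented by its brighter probe and tested if well above background, in at least 0.5 of its spots, on all arrays of 1 tissue (26420 models; 5951 were not tested). Tissues were compared with limma 3.58.1 (lmFit, eBayes) in R 4.3.3 with the package data.table (version 1.17.8), with Benjamini-Hochberg adjustment over all models tested; residual degrees of freedom were 4, prior ones 2.44 and the median standard error 0.20, and the number of arrays limits the precision. Tables and figures were made with Python 3.11.15, numpy 2.4.6, pandas 2.3.3 and matplotlib 3.10.9. The procedure was tested on simulated data.

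For each complex the text names the called models with the largest fold change and the one with the highest mean level, with psaA, atpB, ndhB, rbcL, clpP and ycf2 always; other plastid models are named to account for them, except 1 gene with 2 models that is counted but not reported here, and each nuclear list by the 2 called genes with the largest change in each direction, genes without a call being added after their values were seen. Members, lists and tests were chosen with earlier results of these data known; the assignment of 3 codes and the list of operons were written after the values were seen. The 16 alternatives covered scaling, background correction, the authors' table, filters, probes, sample averaging, a replicate block and leaving out each sample. No header or label names the build behind the array design, so no coordinates or sequences are printed.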

Additional observations from a re-analysis of the deposited data

Results flagged for a closer look

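The lowest of the 4 root levels of atpA, in root replicate 4, stood apart from the others: it was 1.74 on the log2 scale relative to the 75th percentile of the array, and the nearest other root level was 1.99. The gap was 0.961 of the range of the root levels, above Dixon's 95% critical value for 4 samples. Among 37 models such a test marks about 1 in 20 by chance. The difference of atpA between tissues kept its call when root replicate 4 was left out.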

How the results depend on the processing

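The count of plastid models called higher in flower bud was 33 and ranged from 32 to 35 over the 16 alternatives, and 0 were called higher in root under any of them. The median difference of -2.14 became -2.31 with quantile normalization, -2.84 with spike-in scaling and -1.86 with arrays set to their medians. Leaving out 1 sample gave medians from -2.22 to -2.05 and 33 calls each time. Of the models with no call, the median of the open reading frames changed sign with quantile normalization (0.00675) and with median scaling (0.064), as did ATCG00870 with median scaling (0.048) and ATCG01270 with quantile normalization (0.022) and median scaling (0.081); the cause was not tested. The fit of all 8 arrays with the replicate number as a block (replicate block) gave 33 calls and a median of -2.14, and 33 calls without the block. Same-numbered root and flower bud arrays had deviations from their tissue means that correlated at -0.0743, 0.0181, -0.0084 and -0.0365 across models. The flower bud arrays within sample A or B differed no more than repeated spots, so these correlations cannot show whether replicates were paired. The numbers were not taken to pair the samples. With only models well above background on all 8 arrays, 21733 were tested. Of these, 4390 were called higher in flower bud, compared with 7324 of 26420 in the main fit. With spike-in scaling 3935 of 26420 were called higher in root, compared with 6259. All plastid models were well above background, so signal strength did not limit which of them could be tested.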
